A study of Mus musculus with 4 samples.

Results

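Interferon-gamma-responsive defence and antigen presentation were followed through 9 genes: the immunity-related GTPases Iigp1, Igtp and Irgm1, the guanylate-binding proteins Gbp2b and Gbp2, the transcription factor gene Irf1, and the MHC class I heavy chain genes H2-K1, H2-D1 and H2-Q7. They are 9 of the 22547 features counted in each library and were matched by gene symbol. They were chosen from measured values of these same counts, with a response of alveolar type II-like (AT2-like) cells at day 20 in view, so the values below are a description and carry no test. The libraries came from lungs of Gramd2creERT2;mTmG mice, in which tamoxifen-dependent Cre is driven by Gramd2, known from alveolar type I (AT1) cells, and switches a membrane tdTomato reporter to membrane EGFP. Day 0 was the sorted GFP+ fraction, taken without culture. Days 8, 13 and 20 were organoids grown from such cells in growth factor-reduced Matrigel together with 100000 cells of the lung fibroblast line MLg (mouse), in DMEM/F-12 with 10% FBS and the TGF-beta receptor inhibitor SB 431542. Organoid cells were enriched with EpCAM antibody beads before loading. The sources used here give neither the age of the mice nor the tamoxifen dose, and do not say whether mice were pooled.

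Interferon-gamma, made mainly by T cells and natural killer cells, binds the receptor chains Ifngr1 and Ifngr2 and activates the kinases Jak1 and Jak2. Signalling from these kinases brings transcription factors to gamma-activated sequences (GAS) and induces Irf1 among other genes, and Irf1 in turn binds interferon-stimulated response elements (ISRE). Immunity-related GTPases and guanylate-binding proteins coat and disrupt the vacuoles of intracellular pathogens, Irgm1 restrains other members of its family, and class I heavy chains pair with B2m to show peptides to CD8 T cells. Type I interferons induce many of the same genes, so these genes do not tell both kinds of ligand apart.

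Promoter bases are shown first because 5 of the 6 GTPase and Irf1 genes hold an interferon-response motif upstream of their annotated start. RefSeq promoter windows of 300 bases (250 before to 50 after the start, build GRCm38.p6) were found for 8 of the 9 genes. Iigp1 had no window and was not searched. The ISRE core was searched as GAAANNGAAA on both strands and the GAS core as TTCNNNGAA, which reads the same on both strands. Capitals mark the matches, each sequence runs 5′ to 3′ on the gene's strand, and all bases lie before the RefSeq start.
Igtp, chr11:58199476-58199555, plus strand: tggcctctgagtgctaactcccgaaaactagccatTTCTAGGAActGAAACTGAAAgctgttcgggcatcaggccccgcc
Irgm1, chr11:48871428-48871457, minus strand: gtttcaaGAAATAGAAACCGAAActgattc
Gbp2b, chr3:142594675-142594754, plus strand: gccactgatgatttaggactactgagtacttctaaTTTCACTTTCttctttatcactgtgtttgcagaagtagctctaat
Gbp2, chr3:142620569-142620631, plus strand: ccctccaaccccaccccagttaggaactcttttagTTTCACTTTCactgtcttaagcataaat
Irf1, chr11:53769889-53769967, plus strand: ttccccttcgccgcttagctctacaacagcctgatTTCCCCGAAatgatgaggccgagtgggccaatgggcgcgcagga

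Igtp held both motifs, with the GAS core 45 to 37 bases and the ISRE core 34 to 25 bases before its start. Irgm1 held a pair of overlapping ISRE cores between 30 and 15 bases before its start. Gbp2b and Gbp2 carried the same 10 letters, TTTCACTTTC, the ISRE core on the opposite strand, at 137 to 128 and 59 to 50 bases before their starts. Irf1 held a GAS core and no ISRE core. Of all 32851 promoter windows of that length, 3.44% held GAAANNGAAA and 8.30% held TTCNNNGAA. Neither motif was found in the windows of H2-K1, H2-D1 and H2-Q7, which says only that these letters are not there. For Irgm1 and Gbp2, 30 of the printed bases lie in an exon of another annotated transcript start (GENCODE M21). By that annotation all 9 genes are protein-coding, with Igtp at chr11:58199556-58207591, Irgm1 at chr11:48861968-48871683, Irf1 at chr11:53770014-53778374, Gbp2b at chr3:142594847-142619179, Gbp2 at chr3:142620602-142638008, H2-K1 at chr17:33996017-34000347, H2-D1 at chr17:35262730-35267499 and H2-Q7 at chr17:35439155-35443773.

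There was 1 library for each day, so changes between days have no replicates behind them, and day, culture and library cannot be told apart. All intervals are 95% intervals of counting error alone. The 4 libraries held 8902 to 11445 barcodes and 31850454 to 154258012 UMIs (unique molecular identifiers, each 1 captured transcript), against a loading target of 10000 cells, and pairs of libraries shared 25 to 41 barcodes. Barcodes with at least 500 genes and at most 15% mitochondrial UMIs were kept: 7350, 7893, 9311 and 9178 cells at days 0, 8, 13 and 20, with median depths of 2558.5, 17075, 9527 and 12791 UMIs. The labels name the material alveolar epithelial cells, yet macrophage-like cells were the largest gated class at every day, with 1519, 6509, 5875 and 4733 cells. Cells were gated by marker lists, which gave 108, 418, 558 and 585 AT2-like cells and 150, 411, 973 and 2405 fibroblast-like cells at the same days, while 15.99, 5.22, 11.7 and 12.4% of kept cells fell in no gate. AT2-like cells of day 20 had a median of 2393 UMIs per 10000 from the AT2 list and 223 from the macrophage list, most of the latter from Lyz2, which AT2 cells also make. For the other gates the own-list medians at day 20 were 337 (macrophage) and 114 (fibroblast) per 10000. Fibroblast-like cells carried an EGFP or tdTomato UMI in 28.0% of cells at day 0 and in 7.06, 11.8 and 3.99% at days 8, 13 and 20, against 76.8% of AT2-like cells at day 20.

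Across the 3 classes with enough cells at every day, day 20 was the day of the highest level in 24 of 27 gene-and-class pairs. The exceptions were Gbp2b and H2-Q7 in fibroblast-like cells, highest at day 0, and H2-D1 in macrophage-like cells, highest at day 13. How often other genes were highest at day 20 was not counted. The 9 genes were chosen with a day 20 response in view, so the 24 of 27 pairs only describe them. In AT2-like cells 8 of the 9 genes were at least 2-fold higher at day 20 than at day 13, against 1.73% of the 5263 genes tested, and the median log2 ratio was 2.68 against -0.07 over all genes. Macrophage-like cells had 6 of 9 higher (1.67% of 5579 genes, median 1.79 against 0.10). Those cells lay mostly in different Leiden clusters on the 2 days, 59.8% of them in cluster 0 at day 13 and 29.0 and 27.7% in clusters 11 and 8 at day 20, so the change also compares clusters, whereas cluster 2 held 96.6 and 99.3% of AT2-like cells. In fibroblast-like cells 4 of the 7 genes that reached 20 CPM were higher (0.94% of 5638 genes, median 1.38 against -0.01). No member was lower in any of the 3 classes, where 2.34, 1.08 and 0.55% of genes were. A gene was called higher or lower when the ratio of its summed counts was at least 2-fold, the larger side reached 20 CPM (UMIs of the gene per 1000000 UMIs of the class) and the counting interval excluded 1. Iigp1, Igtp, Irgm1 and Gbp2 were called higher in all 3 classes, Gbp2b and H2-Q7 in AT2-like and macrophage-like cells, and Irf1 and H2-K1 in AT2-like cells. H2-D1 was called in none.

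**Figure D1:**
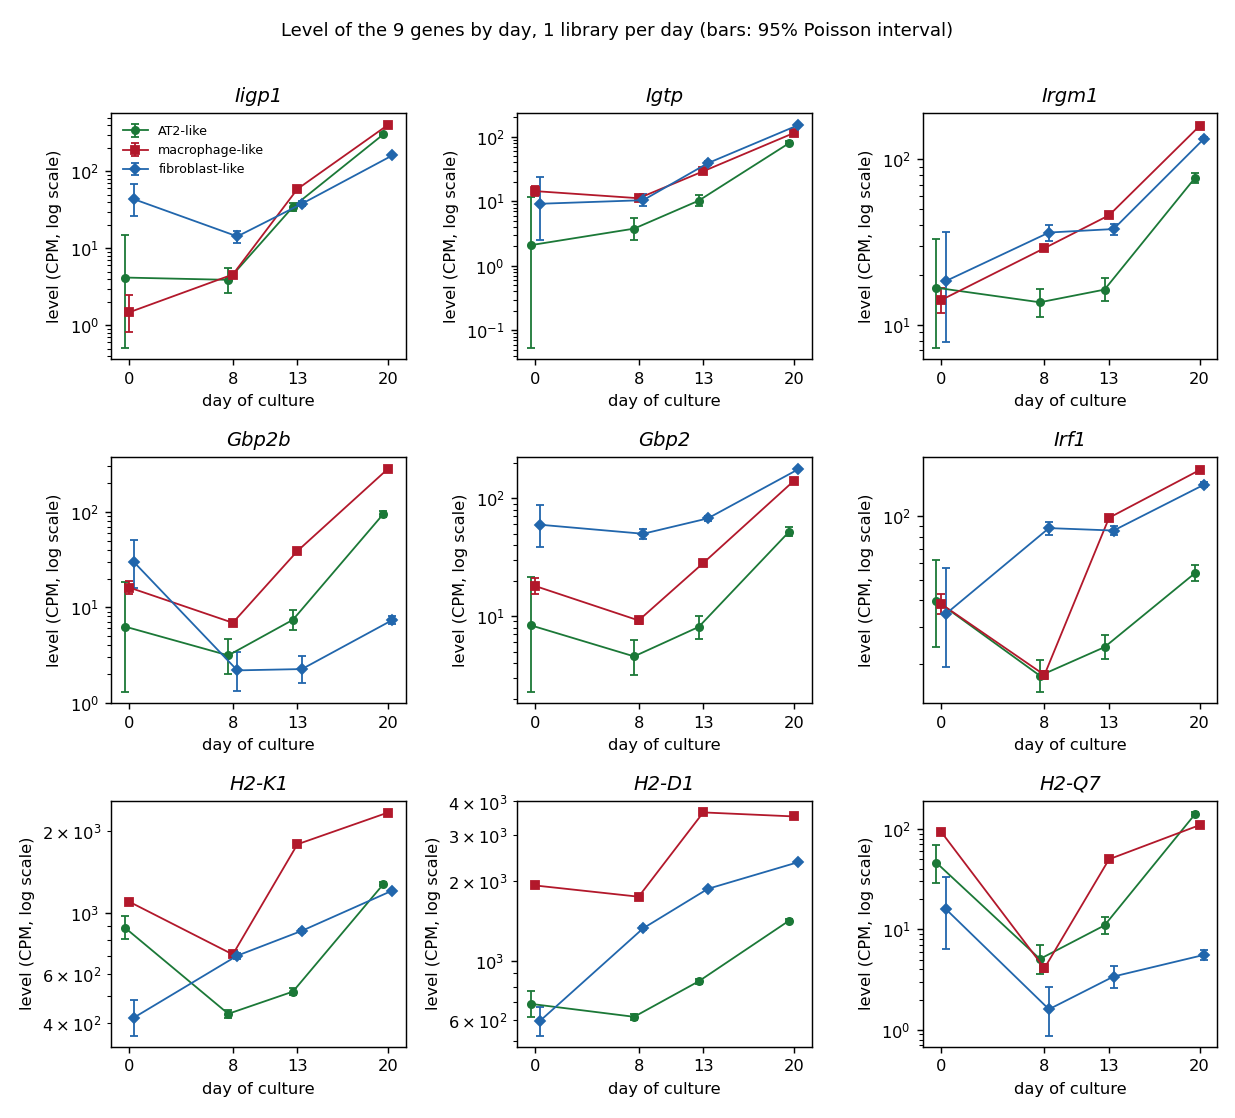
Level of each of the 9 genes (CPM, log scale) by day of culture in AT2-like (green circles), macrophage-like (red squares) and fibroblast-like cells (blue diamonds), 1 library per day, with 95% Poisson intervals of counting error. Iigp1 ends at 302, 401 and 161 CPM at day 20 in the 3 classes, while Gbp2b and H2-Q7 stay under 10 CPM in cultured fibroblast-like cells.

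Iigp1, an effector immunity-related GTPase that loads onto pathogen vacuoles, had levels in AT2-like cells of 4.18, 3.90, 34.5 and 302 CPM at days 0, 8, 13 and 20. The same days gave 1.48, 4.58, 59.0 and 401 CPM in macrophage-like cells. Fibroblast-like cells held 43.5, 14.3, 38.0 and 161 CPM. Day 20 stood above every other day in each class and no day 20 interval met a day 13 interval. From day 13 to day 20 the ratio was 8.76 (7.82 to 9.83) in AT2-like, 6.79 (6.54 to 7.06) in macrophage-like and 4.24 (3.93 to 4.59) in fibroblast-like cells. The order of the ratios was thus AT2-like, macrophage-like, fibroblast-like, with intervals that did not meet, while the order of the day 20 levels had macrophage-like cells first. Iigp1 also differed by 8.85-fold between days 13 and 8 in AT2-like cells, where it was the 1 of the 9 genes called.

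Igtp, an immunity-related GTPase also known as Irgm3, stood at 2.09, 3.77, 10.2 and 79.9 CPM in AT2-like cells over the 4 days. Macrophage-like cells had 14.4, 11.2, 29.2 and 114 CPM. In fibroblast-like cells it stood at 9.16, 10.4, 39.0 and 152 CPM, the highest of the 3 classes at day 20. The day 20 to day 13 ratio was 7.80 (6.33 to 9.70) in AT2-like cells, above the 3.91 (3.70 to 4.14) of macrophage-like and the 3.90 (3.61 to 4.22) of fibroblast-like cells, whose intervals overlapped.

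Irgm1, a regulatory GTPase that keeps the effector members inactive on the cell's own membranes, had 16.7, 13.7, 16.3 and 77.02 CPM in AT2-like cells. Its levels in macrophage-like cells were 14.1, 29.0, 45.8 and 158 CPM. Fibroblast-like cells gave 18.3, 36.0, 37.8 and 133 CPM. The first 3 days overlapped within counting error in AT2-like cells, so there the change fell between days 13 and 20 alone. Its day 20 to day 13 ratios were the smallest of the 3 GTPases of this family in each class: 4.73 (3.98 to 5.64), 3.46 (3.31 to 3.62) and 3.51 (3.25 to 3.80).

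Gbp2b, a guanylate-binding protein gene that was long called Gbp1 in the mouse, was low in cultured fibroblast-like cells, as was H2-Q7 of the class I genes. AT2-like cells had 6.27, 3.12, 7.38 and 95.2 CPM. In macrophage-like cells the values were 16.1, 6.87, 38.9 and 283 CPM. Fibroblast-like cells showed 29.8 CPM at day 0 and only 2.17, 2.24 and 7.34 CPM in culture. The day 20 to day 13 ratio was 12.9 (10.2 to 16.6) in AT2-like cells, the largest of the 9 genes there, and 7.28 (6.95 to 7.63) in macrophage-like cells. In fibroblast-like cells the ratio was 3.27 (2.37 to 4.64), on levels under 20 CPM that were not called. Subtracting free RNA at 5% of the class's UMIs turned that last ratio to a log2 value of -4.18, so its direction is not firm.

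Gbp2, its neighbour on chromosome 3 with the same ISRE letters, did not share that gap. Its level was 8.36, 4.55, 8.09 and 52.0 CPM in AT2-like cells. It was 17.99, 9.19, 28.2 and 139.8 CPM in macrophage-like cells. Fibroblast-like cells had 59.5, 49.9, 67.3 and 176 CPM, the highest of the 3 classes at each of the 4 days. At day 20, cultured fibroblast-like cells thus held 176 CPM of Gbp2 beside 7.34 of Gbp2b, and macrophage-like cells 139.8 beside 283. The day 20 to day 13 ratios of Gbp2 were 6.43 (5.06 to 8.25), 4.96 (4.69 to 5.25) and 2.61 (2.46 to 2.77) in AT2-like, macrophage-like and fibroblast-like cells.

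Irf1, the transcription factor that binds the ISRE, had the smallest day 20 to day 13 ratio of the 6 genes outside class I in each class. AT2-like cells had 39.7, 17.6, 23.98 and 53.7 CPM at the 4 days. Macrophage-like cells had 38.4, 17.7, 98.2 and 165 CPM. Fibroblast-like cells had 34.3, 87.7, 85.4 and 141 CPM. In macrophage-like cells the larger step came earlier, with a ratio of 5.55 (5.27 to 5.84) between days 13 and 8 and 1.68 (1.62 to 1.74) between days 20 and 13. In AT2-like cells the order was the other way round, with 1.37 (1.1 to 1.7) and then 2.24 (1.92 to 2.62). The AT2-like day 20 level was also within the interval of the uncultured day 0 cells, 23.9 to 62.0 CPM on 19 UMIs.

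The class I heavy chain genes were already abundant at day 0. H2-K1, a classical heavy chain present on nearly all nucleated cells, had 886, 430.2, 518 and 1276 CPM in AT2-like cells. In macrophage-like cells it had 1100.1, 708, 1782 and 2324 CPM. Fibroblast-like cells had 417, 701, 863 and 1209 CPM. AT2-like and macrophage-like cells were thus lowest at day 8, while fibroblast-like cells went up from each day to the next. The day 20 to day 13 ratio was 2.46 (2.38 to 2.54) in AT2-like cells, against 1.30 (1.29 to 1.32) and 1.40 (1.38 to 1.43) in macrophage-like and fibroblast-like cells.

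H2-D1, the other classical heavy chain in the list, had 692, 618, 841 and 1424 CPM in AT2-like cells. Macrophage-like cells had 1931, 1752, 3638 and 3514 CPM, so the step lay between days 8 and 13 and day 20 was slightly lower than day 13 (ratio 0.966, 0.960 to 0.972). Fibroblast-like cells had 595, 1332, 1875 and 2364 CPM. The AT2-like ratio of day 20 to day 13 was 1.69 (1.65 to 1.74) and the fibroblast-like one 1.26 (1.25 to 1.28). None of these reached 2-fold, although AT2-like cells again had the largest.

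H2-Q7, a nonclassical class I gene of the Qa-2 group, was the most uneven of the 3. AT2-like cells had 46.0, 5.07, 11.0 and 140.2 CPM. Macrophage-like cells had 94.0, 4.11, 49.9 and 109 CPM. Fibroblast-like cells had 16.03, 1.601, 3.39 and 5.57 CPM. AT2-like cells were below macrophage-like cells at day 13 and above them at day 20, and H2-Q7 was the gene of the 9 whose AT2-like level passed the macrophage-like one at that day. The day 20 to day 13 ratio was 12.8 (10.5 to 15.7) in AT2-like and 2.19 (2.09 to 2.29) in macrophage-like cells. In fibroblast-like cells the levels stayed under 20 CPM and the log2 ratio, 0.72, went to -1.11 with free RNA subtracted. Reads of class I genes are uncertain between copies: 5.34% of the 60-base stretches at the transcript ends of H2-K1 and 4.04% of those of H2-D1 occur in another gene as well. None did for H2-Q7, and the handling of reads that fit several genes is not stated in those sources.

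**Figure D2:**
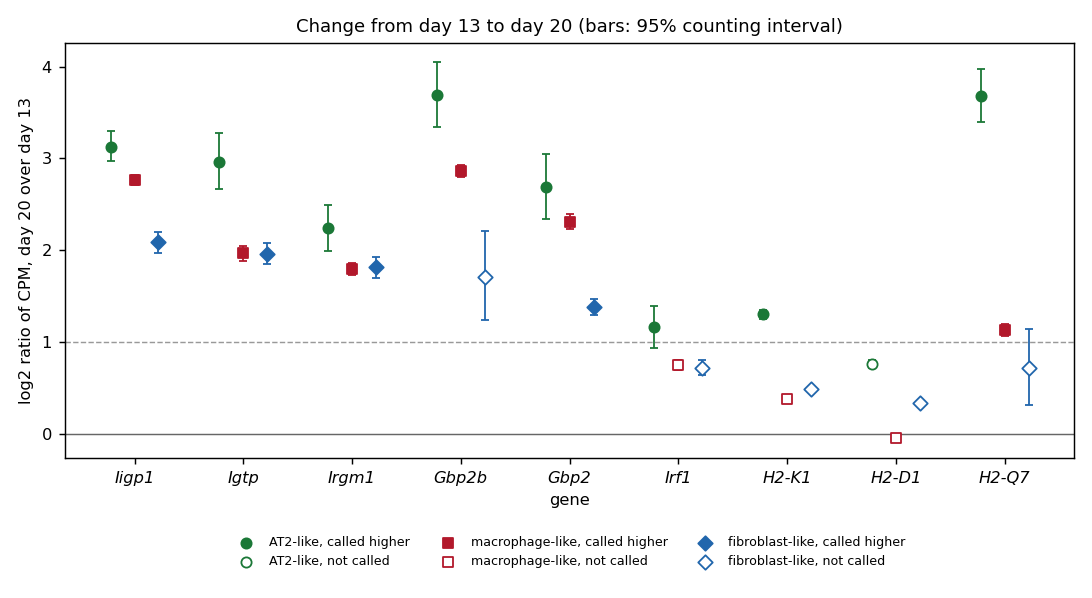
Log2 ratio of CPM at day 20 over day 13 for the 9 genes in AT2-like, macrophage-like and fibroblast-like cells, with 95% counting intervals. Filled symbols are genes called at least 2-fold higher and open symbols genes not called. The AT2-like value is the highest of the 3 for each gene, but the genes were chosen with an AT2-like response at day 20 in view. In the wider interferon-gamma pathway list the median log2 ratio was lowest in AT2-like cells: 0.27, against 1.35 in macrophage-like and 1.48 in fibroblast-like cells.

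The earlier steps differed more between the classes. Between days 8 and 13, 8 of 9 genes were called higher in macrophage-like cells, all but Irgm1, where 4.42% of all genes were. In AT2-like cells 1 of the 4 genes with 20 CPM was called higher (1.06% of all genes) and in fibroblast-like cells 2 of 7, Iigp1 and Igtp (1.08%). None was lower, where 6.22, 1.33 and 0.506% of all genes were in macrophage-like, AT2-like and fibroblast-like cells. Macrophage-like cells therefore held 299 CPM of the 5 GTPase genes and Irf1 together at day 13, against 100.5 CPM in AT2-like and 269.8 CPM in fibroblast-like cells. At day 8 these sums were 78.5, 46.6 and 200.5 CPM, and at day 20 they were 1262, 660.3 and 769.9 CPM. Against day 8, all 9 genes were higher at day 20 in AT2-like cells (3.02% of all genes) and in macrophage-like cells (6.05%), and 4 of 7 in fibroblast-like cells (1.95%). None was lower against day 8, where 5.26, 5.57 and 0.886% of genes were in AT2-like, macrophage-like and fibroblast-like cells. Iigp1 had the largest of those ratios in AT2-like cells, 77.5 (54.2 to 115), and in macrophage-like cells, 87.5 (80.4 to 95.5). In fibroblast-like cells Igtp did, with 14.6 (11.9 to 18.2). Between day 0 and day 8, from sorted cells to culture, AT2-like cells had no gene higher and 3 of 4 lower, Irf1, H2-K1 and H2-Q7, where 11.9% of all genes were higher and 21.9% lower. Macrophage-like cells had Irgm1 higher and Irf1 and H2-Q7 lower of 5 (9.87 and 20.4% of all genes). Fibroblast-like cells had Irf1 and H2-D1 higher and Iigp1 and Gbp2b lower of 7 (14.5 and 29.9%). At day 0, 54.0 and 43.1% of macrophage-like cells lay in Leiden clusters 7 and 18, which held 0 cells of day 8. At day 8, 30.6, 26.1 and 23.5% lay in clusters 1, 4 and 6. Of fibroblast-like cells of day 0, 86.7% lay in cluster 29, which held 0 cells of day 8. These day 0 to day 8 changes, and the macrophage-like ones from day 8 to day 13, thus also compare clusters. The AT2-like values of day 0 rest on few UMIs, 1 to 22 of each gene other than H2-K1 and H2-D1.

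Shares of positive cells were read at a fixed depth, with each cell thinned to 2000 UMIs and shallower cells left out (11 AT2-like cells at day 13 and 12 at day 20). Iigp1 was found in 3.29% of AT2-like cells at day 13 and 18.5% (15.4 to 21.9%) at day 20, in 7.33 and 34.1% of macrophage-like cells and in 6.11 and 18.2% of fibroblast-like cells. At full depth the day 20 shares were 33.0, 58.7 and 48.4%. Igtp went from 2.38 to 8.38% of AT2-like cells, from 5.03 to 16.3% of macrophage-like cells and from 6.32 to 17.1% of fibroblast-like cells. Gbp2b went from 1.097 to 10.3%, from 5.03 to 27.0% and from 0.207 to 1.2% in the same order of classes. These shares ranked the classes as the CPM did for Gbp2b, whereas for Iigp1 AT2-like and fibroblast-like cells had shares whose intervals overlapped although AT2-like cells held more CPM. H2-Q7 was found in 1.46 and 14.1% of AT2-like cells, 8.35 and 15.8% of macrophage-like cells and under 1% of fibroblast-like cells on both days. H2-D1 was near its ceiling in macrophage-like cells, at 98.8% on both days, and in AT2-like cells it stood at 75.1 and 75.7%. Its AT2-like share thus overlapped between the days while its CPM was 1.69-fold higher. No class of day 20 can be taken to lack these genes, so no share of background is given. The lowest shares of Iigp1 and Igtp among the classes described here were those of airway secretory-like cells, 6.21 and 0.565% of 177 cells (median depth 18013.5 UMIs, against 15193 in AT2-like cells), while for Gbp2b and H2-Q7 fibroblast-like cells were lower, at 1.2 and 0.943% against 3.39 and 2.26%.

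The GTPase genes and Irf1 were counted per cell. At day 20, at least 3 of the 6 were seen in 8.03% of AT2-like, 23% of macrophage-like and 12.7% of fibroblast-like cells at 2000 UMIs, against 0.366, 3.1 and 1.76% at day 13. Among AT2-like cells of day 20 with an Iigp1 UMI, 43 of 106 (40.6%, 31.1 to 50.5%) had at least 2 of the other 5 genes, against 19 of 467 (4.07%, 2.47 to 6.28%) without one. The same shares were 56.6 and 16.9% in macrophage-like cells and 55.1 and 11.3% in fibroblast-like cells. Cells with an Iigp1 UMI thus held the other genes more often in all 3 classes at this fixed depth, and the part of cell size or state in that was not tested.

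**Figure D3:**
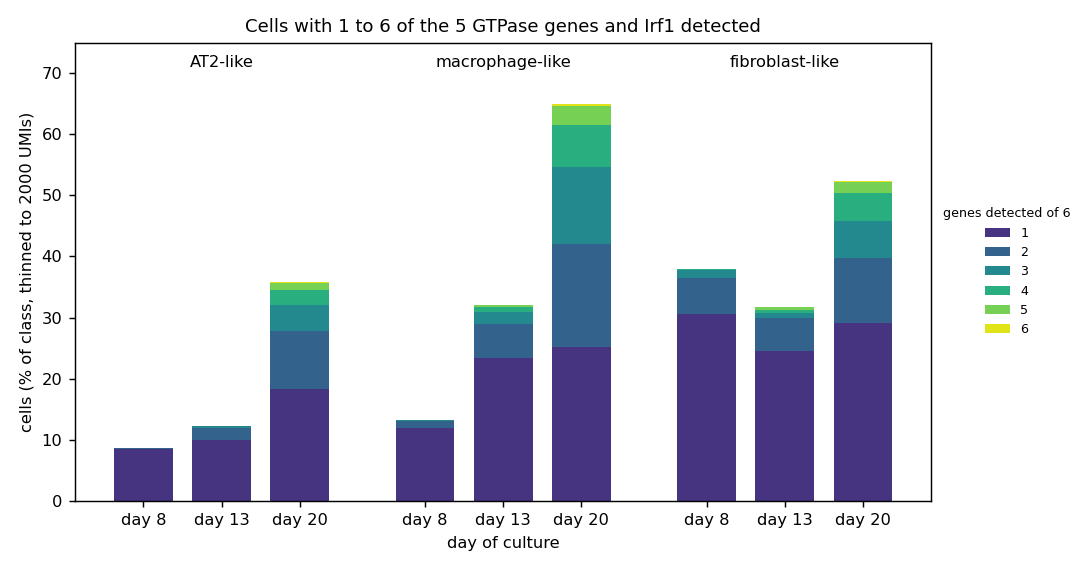
Share of cells (% of the class, each cell thinned to 2000 UMIs) in which 1 to 6 of Iigp1, Igtp, Irgm1, Gbp2b, Gbp2 and Irf1 were detected, by class and day of culture. The whole bar is the share with at least 1 of the 6, which at day 20 was 35.8% of AT2-like, 65.0% of macrophage-like and 52.4% of fibroblast-like cells.

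The UMIs of these genes were spread unevenly over cells. Of the 585 AT2-like cells of day 20, 160 (27.4%) had no UMI of the 6 genes, the median cell had 109 CPM of them and the cell at the 95th percentile had 3124 CPM. The 10% of AT2-like cells with the highest level (59 cells) held 59.9% of the class's UMIs of the 6 genes, while holding 11.4% of all its UMIs. In macrophage-like cells the top 10% held 37.4%, the median cell had 598 CPM and 11.2% of cells had none. In fibroblast-like cells it held 53.9%, the median cell had 294 CPM and 5.78% had none. Iigp1 alone was more concentrated, with 72.4, 47.7 and 66.3% of its UMIs in the top 10% of AT2-like, macrophage-like and fibroblast-like cells. H2-K1 was less so, with 33.1, 17.5 and 24.5%. The 95th percentile cells of the 3 classes, at 3124, 3855 and 3679 CPM of the 6 genes, were thus closer to each other than the median cells were. At day 13 the top 10% held 61.0, 53.3 and 47.8% of the UMIs of the 6 genes in the same order of classes. The top cells were picked by the same counts, so genes with few UMIs come out concentrated for that reason alone. All 30 Iigp1 UMIs of AT2-like cells at day 8 fell in the top 10%. Iigp1 and the abundant H2-K1 are therefore not compared like for like.

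Among the other classes, T/NK-like cells of day 20 (69 cells) had 216 CPM of Iigp1, 179 of Igtp, 142 of Irf1 and 1479 of H2-Q7, against 5.52, 36.5, 44.1 and 380.3 CPM in the 721 T/NK-like cells of day 0. Of those 721 cells, 168 (23.3%) had no UMI of the 3 class I genes, against 0 at day 20, at median depths of 2318 and 6860 UMIs. Leiden cluster 23, a T/NK-like cluster of 328 cells, held cells of day 0 only. The T/NK-like cells of days 0 and 20 may thus also differ in the kinds of cells pooled. Airway secretory-like cells had 7.76 CPM of Iigp1 at day 13 and 30.5 (25.3 to 36.4) at day 20. Their Igtp went from 3.50 to 22.1 CPM and their Gbp2 from 4.04 to 23.8 CPM. Their H2-K1, 519 and 554 CPM, and their Irf1, 22.1 and 21.8 CPM, moved little. These are levels with no call. At 2000 UMIs the Igtp share of airway secretory-like cells was 0.815% at day 13 and 0.565% at day 20, on 3 and 1 cells. Cells in no gate had 152 CPM of Iigp1 at day 20. The AT1-like cells of day 20 numbered 23 and are not read further.

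Over the 30 class and day groups with at least 50 cells (26 gated and 4 of ungated cells), the 5 highest Iigp1 levels were all of day 20, in the order macrophage-like, AT2-like, T/NK-like, fibroblast-like and ungated cells, and the intervals of neighbours did not meet. The order was another for Gbp2, where mesothelial-like cells of day 0 came first with 279.6 CPM, ahead of fibroblast-like cells of day 20. Those mesothelial-like cells (101 cells) came next to macrophage-like cells of day 20 for Gbp2b, with 147 CPM. Endothelial-like cells of day 0 held 2773 CPM of H2-D1, below macrophage-like cells of days 13 and 20 only, and 388 of H2-Q7, whose interval overlapped that of T/NK-like cells of day 0. For Irf1 the 4 highest groups, macrophage-like, T/NK-like and fibroblast-like cells of day 20 and endothelial-like cells of day 0, each overlapped their neighbour in order. H2-Q7 was led by T/NK-like cells of day 20 and H2-D1 by macrophage-like cells of day 13.

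**Figure D4:**
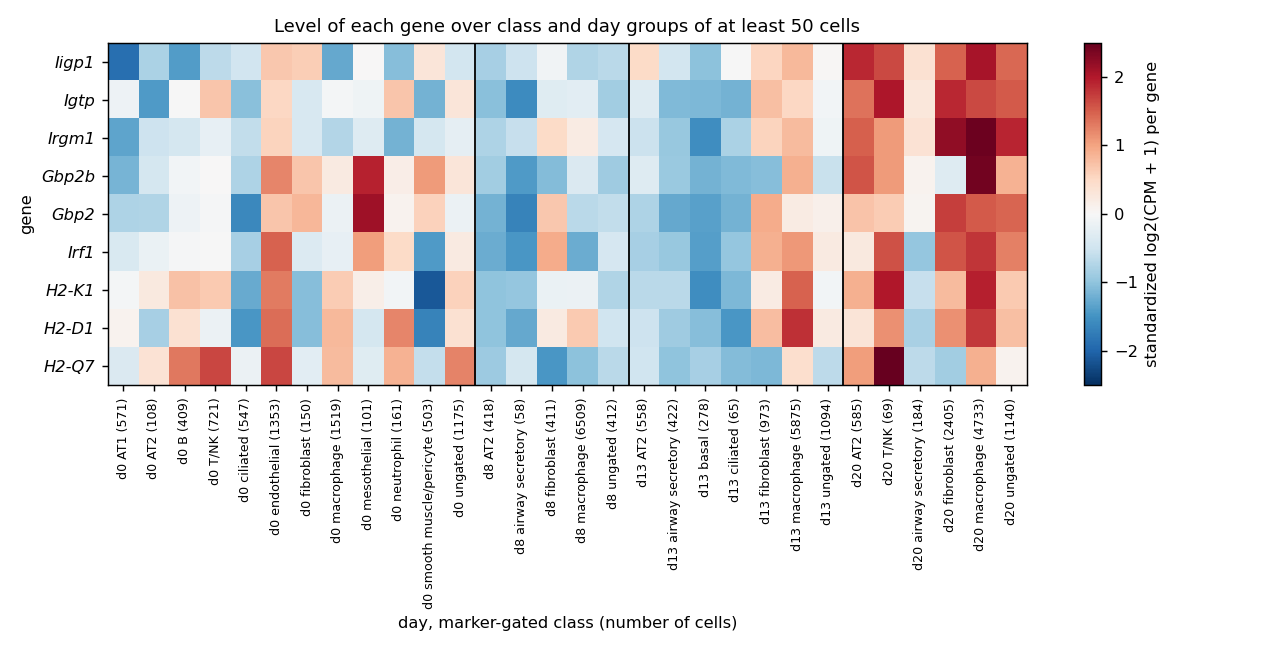
Levels of the 9 genes in the class and day groups with at least 50 cells (number of cells in brackets), as log2(CPM + 1) standardized per gene over the 30 groups, ungated cells included, with lines between days. AT2-like, T/NK-like, fibroblast-like and macrophage-like cells of day 20 are above the gene's mean for Iigp1, Igtp, Irgm1, Gbp2 and Irf1. Among the groups of day 0, endothelial-like cells are highest for Irgm1, Irf1, H2-K1 and H2-D1. Mesothelial-like cells are highest there for Gbp2b and Gbp2, but not for Iigp1, Igtp or Irgm1.

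Genes with a like pattern were ranked among 11937 genes by Pearson's r with the mean standardized level of the 5 GTPase genes and Irf1. This was done over the 26 gated groups, which share libraries and are not independent. The 10 nearest were Irgm2 (r 0.89), Gbp5 (0.88), Gbp3 (0.87), Ifi47 (0.85), Gbp7 (0.84), Psmb10 (0.83), Gbp4 (0.81), Parp9, H2-Q4 and Gbp6 (0.79 each). The 9 genes themselves had r from 0.45 for H2-Q7 to 0.89 for Irgm1. Irgm1 is part of that mean, as are the other GTPase genes and Irf1, while the class I genes are not. Among the 10 largest day 20 to day 13 ratios of named genes at 50 CPM or more, AT2-like cells had 6 of the 9 genes, all of them below Ankrd37 at 14.3-fold. Macrophage-like cells had Gbp2b and Iigp1, with the chemokine Cxcl9 first at 17.9-fold, and fibroblast-like cells had Iigp1, Igtp and Irgm1, with the chemokine Cxcl10 first at 4.87-fold.

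The rest of the pathway was read from gene lists. Of 35 listed interferon-gamma pathway genes, the count called higher from day 13 to day 20 was 7 of the 15 at 20 CPM in AT2-like cells, 14 of 24 in macrophage-like cells and 14 of 20 in fibroblast-like cells. Of that list 1 gene, the feedback inhibitor Socs3, was lower in AT2-like cells (22.95 to 10.0 CPM) and in macrophage-like cells (34.9 to 11.6 CPM). Medians of log2 were 0.27, 1.35 and 1.48. The receptor chains Ifngr1 and Ifngr2 and the kinases Jak1 and Jak2 were called in none of the 3 classes, with Jak2 under 20 CPM outside AT2-like cells. In AT2-like cells Ifngr1 was 35.04 and 34.0 CPM, Ifngr2 62.3 and 50.2, Jak1 40.8 and 41.2, and Jak2 17.6 and 21.2 at days 13 and 20. Ratios of day 20 to day 13 for the 4 genes ran from 0.756 (Ifngr1) to 1.28 (Jak2) in macrophage-like and from 0.795 (Ifngr1) to 0.960 (Jak2) in fibroblast-like cells. Of the GTPases outside the 9, Irgm2, Ifi47, Gbp3 and Gbp7 were called in all 3 classes, with Irgm2 at 3.18 and 22.2 CPM in AT2-like cells. Cxcl9, a T cell attractant, went from 10.4 to 186 CPM in macrophage-like cells and from 8.70 to 44.5 CPM in fibroblast-like cells.

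Of the genes of class I processing, 14 reached 20 CPM in each class, with median log2 ratios of 0.71, 0.84 and 0.43. Those called higher were 5 in AT2-like, 3 in macrophage-like and 0 in fibroblast-like cells. In AT2-like cells these were B2m, the light chain (321 to 756 CPM), the immunoproteasome subunits Psmb8 and Psmb9 (162 to 367 and 55.3 to 179 CPM) and the peptide transporter chains Tap1 and Tap2. Of the other class I genes 4 of 4 at 20 CPM were called in AT2-like cells, among them H2-Q6 (1.84 to 37.8 CPM) and H2-T23 (42.8 to 135 CPM), 1 of 5 in macrophage-like cells and 0 of 4 in fibroblast-like cells. H2-Q6 is a close relative of H2-Q7, so its reads may be shared. Class II genes were called in 4 of 6, 7 of 7 and 4 of 4 in the 3 classes, with H2-Aa at 108 and 376 CPM in AT2-like and 4.16 and 28.8 CPM in fibroblast-like cells. Type I interferon-associated genes had 4 higher and 1 lower of 8, 10 higher of 17 and 8 higher of 14. Isg15 was higher in each class, 30.7 to 70.1 CPM in AT2-like cells. A control list of NF-kB targets had none higher and 1 of 3, 2 of 5 and 0 of 3 lower, and its medians were -0.62, -0.57 and -0.53.

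**Figure D5:**
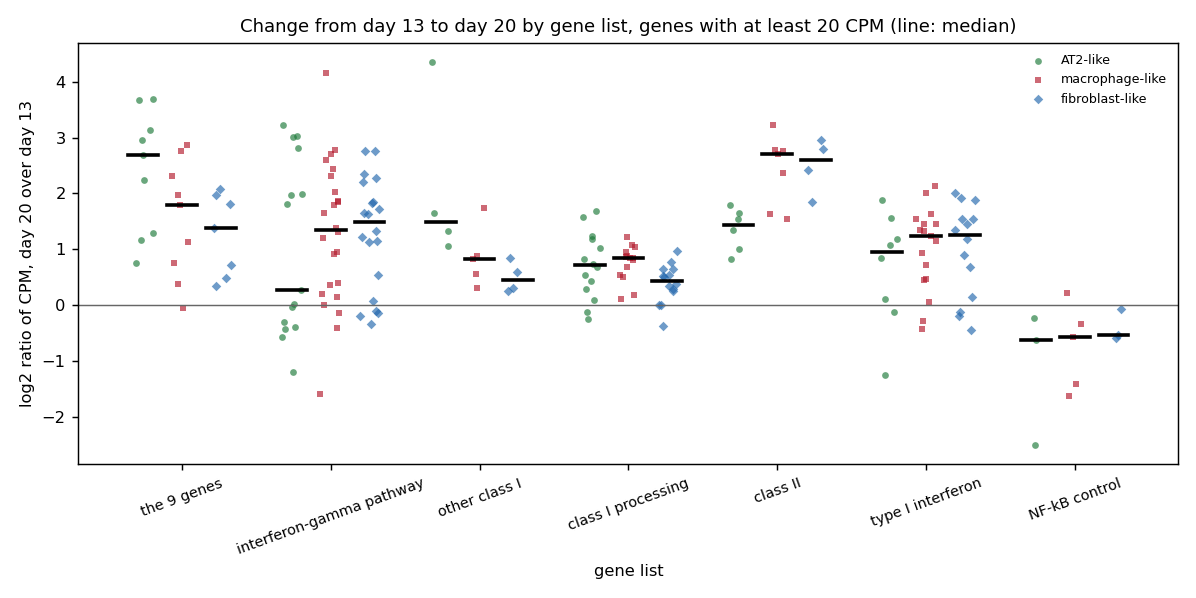
Log2 ratio of CPM at day 20 over day 13 for the 9 genes and for the genes of 6 lists that reached 20 CPM, by class, with a line at each median. The 9 genes have medians of 2.68, 1.79 and 1.38 in AT2-like, macrophage-like and fibroblast-like cells, and the NF-kB control list has a median below 0 in all 3.

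Ifng, the ligand, was counted with 35, 3, 6 and 199 UMIs in all kept cells of days 0, 8, 13 and 20. Per UMI counted, that was 1.14 (0.793 to 1.58), 0.0203, 0.0513 and 1.35 (1.17 to 1.55) CPM, so day 20 overlapped the shallower day 0 library within counting error and both stood above days 8 and 13. At day 20, 183 of the 199 were in T/NK-like cells, at 271 CPM against 6.79 CPM in those of day 0, 14 in ungated cells and 2 in other classes, and 38 cells held any. T/NK-like cells numbered 721, 21, 6 and 69 at the 4 days, and those of days 0 and 20 may differ in the kinds of cells pooled. The type I interferon gene Ifna4 and the lambda gene Ifnl3 had 0 UMIs in all kept cells of each day. The type I gene Ifnb1 had 2, 1, 3 and 1 at days 0, 8, 13 and 20, of which 1, 1, 3 and 0 were in macrophage-like cells and the others in ungated cells. Between days 13 and 20 the ligand's level and those of most of the 9 genes were both higher, in 1 library each, and the part of one in the other was not tested.

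Markers of macrophages, the most numerous class, were set beside the AT2-like values. Of 21 macrophage markers, 20 had UMIs in AT2-like cells at day 20 and Chil3 was at 0, as at day 13. Their median level was 7.04% of that in macrophage-like cells at day 13 and 4.08% at day 20, and their sum without Lyz2 was 1882 and 1066 CPM, against 22994 and 24398 CPM in macrophage-like cells. The 9 genes stood at 19.0 to 58.5% of the macrophage-like level at day 13 and at 32.5 to 129% at day 20. AT2-like cells without a UMI of Marco, C1qa, C1qb, C1qc, Mrc1, Csf1r or Cd68 numbered 46 at day 13 and 186 at day 20. At day 13 these cells held only 2 to 8 UMIs of each gene outside H2-K1 and H2-D1. In them Iigp1 stood at 10.9 and 225 CPM at the 2 days, and Gbp2b at 7.25 and 72.1 CPM. H2-K1 stood at 438 and 1009 CPM and H2-D1 at 694 and 1171 CPM. In fibroblast-like cells the same 21 markers had a median of 2.15% of the macrophage-like level at day 20. Without the fibroblast-like cells that held a reporter UMI, Iigp1 was 36.8 and 159.9 CPM at days 13 and 20, against 38.0 and 161 CPM with them. Leaving out macrophage-like cells with a UMI of the cycling genes Mki67 or Top2a gave 60.2 and 396 CPM of Iigp1. The ratio of H2-Q7, called in the whole class, then came to just under 2-fold.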

How the data were processed

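Whole-cell suspensions of 4 samples were profiled with the Chromium 3′ kit v3.1, per the labels' protocols, although nuclear RNA is the molecule named in the labels. What the authors deposited are raw UMI counts for each gene in each barcode. Per the submitters' processing notes, they used Cell Ranger 7.0.1 and the mm10 build. The sources used here do not say which annotation was used, nor whether free RNA or doublets were removed. The 9 genes, the gene lists and the tests were chosen with earlier results of these data known, and the scoring rule of the gates was set after the files were seen.

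A cell's score for each of 13 marker lists was the mean of its markers' log1p(UMIs per 10000), each scaled to the gene's 95th percentile over cells with a UMI and limited to 1. The cell took the list with the highest score, at 0.2 or more, 0.1 or more above the next and with at least 3 markers detected. The classes were rebuilt and may differ from the authors'. Doublets were kept: the automatic threshold of Scrublet in Scanpy 1.11.5 called 255 cells of day 8 but failed elsewhere, with 0 calls at days 0, 13 and 20. At day 20, 31 AT2-like, 119 macrophage-like and 361 fibroblast-like cells lay within 0.05 inside the gate's limits, and 33, 146 and 339 within 0.05 outside.

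Counts were summed per class and library and scaled to CPM. With 1 library per day there was no test. CPM carry exact Poisson, ratios exact conditional Poisson and shares Clopper-Pearson intervals (SciPy 1.17.1), all at 95%. A side under 3 UMIs was set to 3. The ratio rule was tested on simulated data. Named genes were the 9, genes of the lists, the 10 nearest in pattern and the 10 largest day 20 to day 13 ratios at 50 CPM or more. Some genes counted in the lists and rankings are not reported here by name.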

Additional observations from a re-analysis of the deposited data

Results flagged for a closer look

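Irf1 differed in opposite directions between the sorted cells of day 0 and the cultured cells of day 8. Its log2 ratio of day 8 to day 0 was 1.35 in fibroblast-like cells, against -1.18 in AT2-like and -1.12 in macrophage-like cells, and the difference was not tested because each day has 1 library. The fibroblast-like value rests on 15 UMIs at day 0. The class name did not stand for the same Leiden clusters on both days. At day 0, 86.7% of fibroblast-like cells lay in cluster 29, which held 0 cells of day 8. At day 8, 41.4, 41.4 and 16.5% lay in clusters 3, 5 and 16. Macrophage-like cells of days 0 and 8 also lay mostly in different clusters. Fibroblast-like cells of the cultures may include the added MLg line. Which of them came from that line was not tested.

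Barcodes outside the cell filter, which enter no comparison, held the 5 GTPase genes and Irf1 at 145, 69.6, 154 and 633 CPM at days 0, 8, 13 and 20 (161, 446, 598 and 1580 UMIs in 1552, 3497, 2134 and 1190 barcodes). Kept cells had 151, 83.2, 215 and 894 CPM. The barcodes left out thus followed the same order of days as the kept cells.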

How the results depend on the processing

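The counts called higher from day 13 to day 20 were 7 to 8 of the 9 genes in AT2-like, 5 to 6 in macrophage-like and 4 to 5 in fibroblast-like cells under every alternative run: stricter and looser gates, Leiden clusters in place of gates, doublets removed, 2 other cell filters, 2 other scalings, no threshold on the level, free RNA subtracted and, chosen after seeing the data, 3 subsets of cells. Of 249 such summary values under alternatives 238 stayed within 1.5 times of the reported ones or within their interval and 11 did not, and none reversed. Of 1107 values of single genes 918 did so and 189 did not. The sign changes of Gbp2b and H2-Q7 in fibroblast-like cells with free RNA subtracted are among those 189, on ratios that were not called. All but 1 of those 11 concern the steps before day 13. In fibroblast-like cells the genes higher at day 13 than at day 8 were 1 with the stricter gate and 1 by the mean over cells, in place of 2. Between days 0 and 8 the fibroblast-like count higher was 1 with the looser gate, 1 with Leiden clusters and 4 by the mean over cells, in place of 2, and the count lower was 1 with the stricter gate in place of 2. AT2-like cells had 1 gene lower with Leiden clusters in place of 3, and macrophage-like cells 0 higher with Leiden clusters and 2 without the level threshold in place of 1. Without that threshold AT2-like cells had 4 genes higher from day 8 to day 13 in place of 1. AT2-like cells of day 20 with at least 3 of the 6 genes were 4.15% at 1000 UMIs in place of 8.03%, as fewer UMIs find fewer genes. The cause of the other changes was not tested. Log2 ratios of day 20 to day 13 in AT2-like cells ranged from 2.87 to 4.37 for Iigp1, 2.13 to 3.26 for Irgm1 and 0.89 to 1.6 for Irf1. No paired analysis was possible because each day has 1 library and the labels give no replicate numbers. Depth limits day 0, where AT2-like cells held few UMIs of these genes, and T/NK-like cells of days 8 and 13, of which there were 21 and 6.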
